A study of Mus musculus with 6 samples.

Results

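The semaphorin, plexin, ephrin and Eph genes of the mouse heart were taken as every gene of the deposited table whose symbol began with Sema and a digit, Plxn, Efna, Efnb, Epha or Ephb. That gave 52 of 46095 genes: 28 ligand genes (20 semaphorins and 8 ephrins), 23 receptor genes (9 plexins and 14 Eph receptors) and Plxna4os1, a noncoding antisense gene. RNA had been sequenced from heart tissue of 3 STAT3cKO samples, which carried a deletion of STAT3 made only in cardiomyocytes, and from 3 wild-type samples with no treatment or allele named. The sources used here state no age, sex, strain or litter, and do not name the Cre driver of the deletion or say whether each sample was a separate animal. The p-values set the difference between the groups against the variation among these samples within each group. That variation may be technical and need not reflect variation between animals. The series asked which pathways that bear on heart function differ without STAT3. Samples are called hearts below and carry the numbers of their labels, 3, 6 and 91 for STAT3cKO and 1, 3 and 4 for wild type.

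Semaphorins are secreted or membrane-bound guidance proteins that bind plexins, and most secreted class 3 semaphorins also need a neuropilin co-receptor. Activated plexins act on the cytoskeleton and on cell adhesion and pull back or redirect the cell edge. Ephrins are held in the membrane by a lipid anchor (ephrin-A) or a transmembrane stretch (ephrin-B), bind Eph receptor tyrosine kinases on the neighbouring cell, and can pass signals into both cells. In the cardiovascular system these proteins are known for vessel branching, for valve and outflow tract formation, and for the border between arteries, which carry ephrin-B2, and veins, which carry EphB4.

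Total counts per heart ran from 15416877 to 18264052, of which the 52 genes took 13497 to 23010. Stat3, the targeted gene, stood at 52.9, 63.7 and 59.6 CPM (read counts scaled to the TMM-normalised library size) in the STAT3cKO hearts, against 99.7, 85.8 and 97.5 in the wild-type hearts. Every STAT3cKO heart lay below every wild-type heart, and the fitted difference was -0.68 ± 0.10 on the log2 scale (SE; adjusted p = 0.000677 in edgeR). Fold changes over the whole table varied with transcript length. The 2713 genes with a longest transcript of at least 5225 nt had a median log2 change of -0.25, and 31.6% of them were lower. The 2717 genes of up to 1801 nt had a median of 0.30, and 2.36% of them were lower.

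Sema3g, Efnb2, Plxnc1 and Epha7 were among the semaphorin, plexin, ephrin and Eph genes that were lower in STAT3cKO hearts. Of 41 members with enough reads to test, 14 were lower and 1 was higher at an edgeR adjusted p under 0.05, against 12.6% lower, 13.2% higher and 25.8% in either direction among all 14484 genes tested. Called or not, 31 of the 41 had a negative fold change. The members that were lower made up 34.1% of those tested and the member that was higher 2.44%. Lower members were 7 of 24 tested ligands, among them Sema3g, Efnb1 and Efnb2, and 7 of 17 tested receptors, among them Plxnc1, Epha7 and Ephb1. The member that was higher was the ligand gene Efna5. Without an offset 0 receptors were higher in edgeR, and 0 were higher at an unadjusted p under 0.05 or in DESeq2. The receptor gene Plxnb1 was higher without STAT3cKO heart 91 (adjusted p = 0.0219) and with the longest-transcript offset described next. The counts include Sema3e, which had under 10 reads in every STAT3cKO heart and passed the filter through wild type; without it 13 of 40 members and 6 of 23 ligands were lower. The count of lower ligands was 4 without wild-type heart 1 or without wild-type heart 4. In those fits 1340 of 14728 and 1198 of 14806 genes tested were lower, in the same order. Without STAT3cKO heart 6, Sema3b was higher as well (adjusted p = 0.0169).

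The counts moved when transcript length was entered in the fit. The members have long transcripts, with a median longest transcript of 4793 nt among those tested (4257 nt for ligands, 6746 nt for receptors), against 3326 nt for all genes tested. A trend of each heart's log2 CPM on transcript length and GC content was entered as an offset, with either the median or the longest annotated transcript as the length of a gene. With the median length, 12 members were lower and 1 higher (11.2% lower and 12.2% higher among all genes). With the longest transcript, 7 members were lower and 3 higher (7.91% lower and 10.9% higher among all genes). The 7 made up 17.1% of the tested members, 3 of 24 ligands and 4 of 17 receptors. The median log2 fold change of the tested members was -0.40 without an offset, -0.28 with the median length and -0.14 with the longest transcript, beside 0.00, 0.01 and 0.02 for all genes. For ligands the medians were -0.35, -0.22 and -0.26, and for receptors -0.40, -0.30 and -0.12. With the longest transcript, the number of lower members was 5 without STAT3cKO heart 3 or wild-type heart 3, 4 without wild-type heart 1 and 3 without wild-type heart 4, and 2 were higher without STAT3cKO heart 3 or 91 or wild-type heart 1 or 3. The share of all genes called in these fits is not given.

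**Figure D1:**
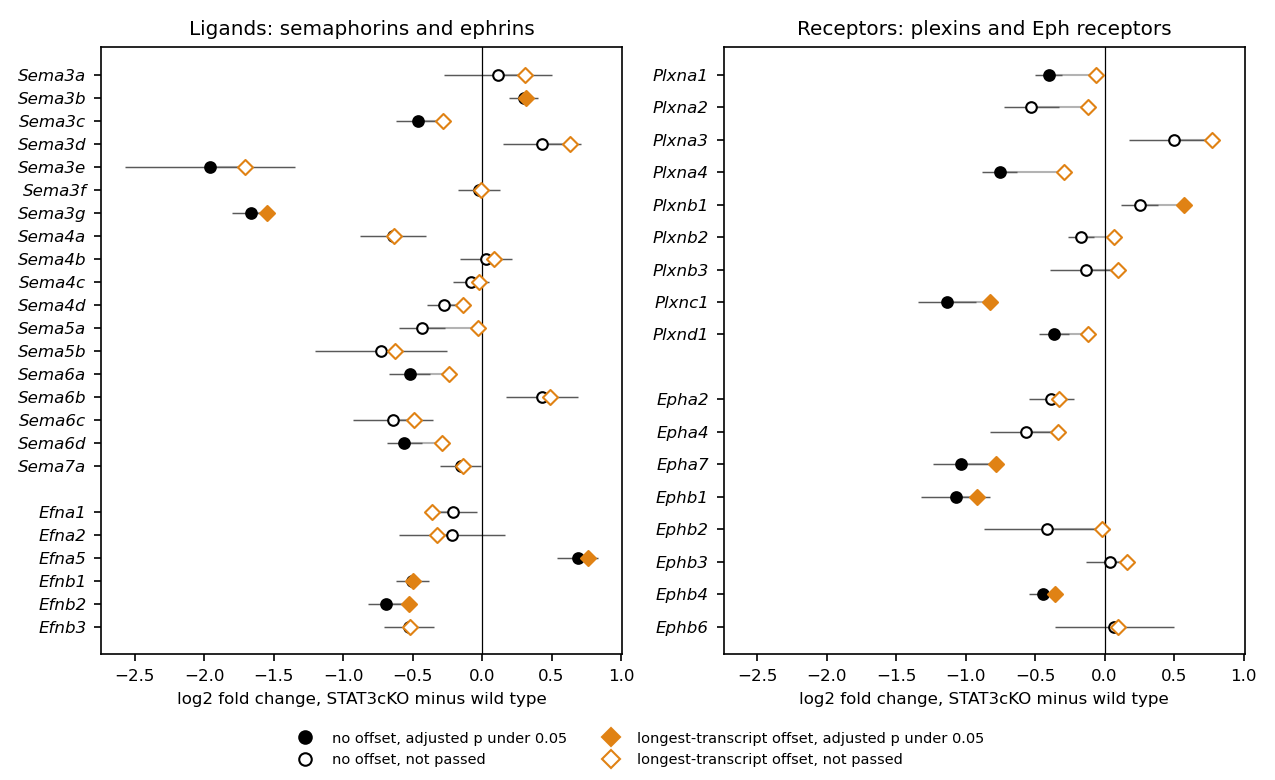
Log2 fold change (STAT3cKO minus wild type, horizontal axis) of the 41 tested members, ligands on the left and receptors on the right. Circles are the fit without an offset with its SE, diamonds the fit with the longest-transcript offset, and filled symbols passed an edgeR adjusted p of 0.05. Sema3g lies at -1.66 and -1.55, while Plxna1 moves from -0.40 without the offset to -0.06 with it.

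The calls that held in all 3 fits were Efna5, higher, and Sema3g, Efnb1, Efnb2, Epha7, Ephb1 and Plxnc1, lower. They were 1 and 6 of the 41 members tested, 14.6% of them lower, against 7.31% higher and 5.76% lower among all genes. Each of the 7 also passed in every fit without an offset that left out 1 heart. With the longest-transcript offset Sema3g and Efna5 passed in all 6 such fits, Efnb1 in 5, Efnb2, Epha7 and Plxnc1 in 4, and Ephb1 in 2. The lowered genes are 3 ligands and 3 receptors, so neither side of the ligand and receptor pairs held all of them.

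**Figure D2:**
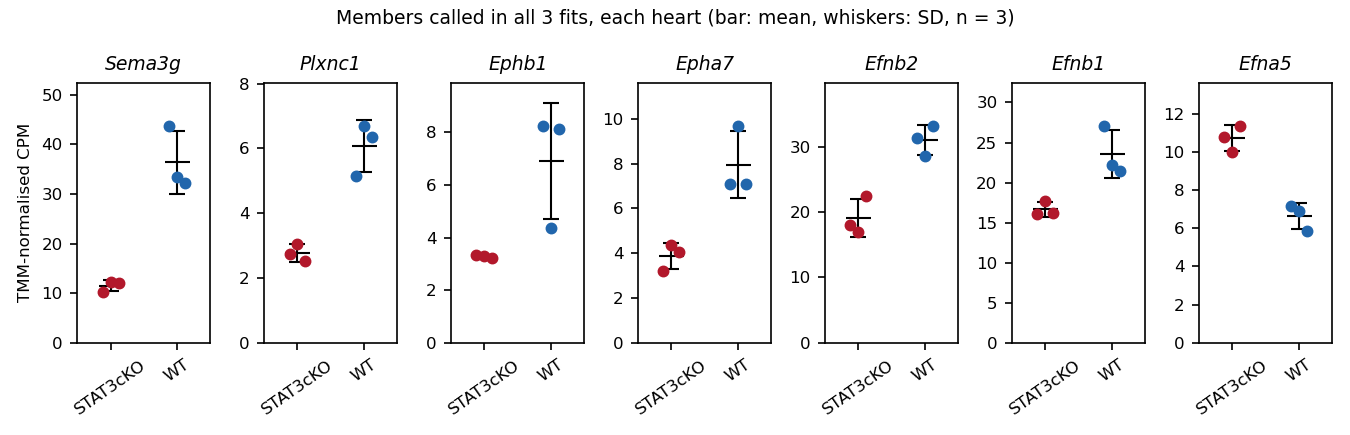
TMM-normalised CPM (vertical axes, from 0) of the 7 members called in all 3 fits, in each STAT3cKO and wild-type heart, with mean and SD (n = 3 per group). In each panel the 3 STAT3cKO hearts lie on one side of the 3 wild-type hearts; Efna5 alone is higher in STAT3cKO.

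The stretch before the start of transcription is shown for the lowered semaphorin and ephrin with the smallest p-values and for the member that was higher, because these genes passed without an offset and with both offsets; the choice was made after their values were seen. The sequences are RefSeq's for GRCm38.p6, 250 bases up to the start, 5′ to 3′ on the strand of the gene, and capitals mark matches on either strand to a TATA box, a CCAAT box or a GC box (letters given below), where matches of the TATA box on both strands overlap in Sema3g. They come from chr14:31217623-31217872 (plus strand, Sema3g), chr8:8661243-8661492 (minus strand, Efnb2) and chr17:62881318-62881567 (minus strand, Efna5). A further stretch of 30 bases, 21 to 50 after the start of Sema3e (chr5:14025296-14025325, plus strand), has its match to the STAT site TTCNNNGAA in capitals.
Sema3g: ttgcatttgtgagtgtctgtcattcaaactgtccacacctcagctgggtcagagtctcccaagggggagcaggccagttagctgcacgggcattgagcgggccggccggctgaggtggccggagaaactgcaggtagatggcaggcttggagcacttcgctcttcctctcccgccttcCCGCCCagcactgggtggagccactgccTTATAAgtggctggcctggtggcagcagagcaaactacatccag
Efnb2: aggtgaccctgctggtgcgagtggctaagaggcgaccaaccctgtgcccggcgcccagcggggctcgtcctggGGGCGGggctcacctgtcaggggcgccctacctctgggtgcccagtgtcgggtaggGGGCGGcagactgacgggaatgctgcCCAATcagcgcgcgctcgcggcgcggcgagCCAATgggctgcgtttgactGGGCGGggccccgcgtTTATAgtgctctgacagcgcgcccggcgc
Efna5: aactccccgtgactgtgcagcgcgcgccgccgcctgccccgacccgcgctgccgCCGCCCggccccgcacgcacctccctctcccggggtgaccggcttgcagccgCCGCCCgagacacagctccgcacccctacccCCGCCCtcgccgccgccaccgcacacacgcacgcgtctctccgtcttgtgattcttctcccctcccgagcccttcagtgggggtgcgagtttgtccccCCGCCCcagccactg
Sema3e: aggcacgtgggctggagacacTTCCTAGAA

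The STAT motif TTCNNNGAA was in 8.3% of all 32851 promoter windows of 300 bases (250 before and 50 after the start) and in 6.85% of the windows of tested genes. It was in 3 of 59 windows of the members (45 members had a window), those of Efna3, Epha3 and Sema3e, and Sema3e alone of these was a called member (12 of the 15 called members had a window). The TATA box (TATAA) was in 24.9% of all windows, 14.0% of those of tested genes and 4 of the 59 (6.78%), those of Sema3g, Efnb2, Sema4f and Sema6d. The CCAAT box was in 37.4% of all windows, 36.9% of those of tested genes and 20 of the 59 (33.9%). The GC box (GGGCGG) was in 35.7% of all windows, 60.0% of those of tested genes and 44 of the 59 (74.6%). The last 3 motifs were chosen after the sequences were seen, and a match is a description of the letters only.

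Among the ligands, semaphorins numbered 20, of which 18 could be tested. In edgeR 5 were lower (27.8%, or 4 of 17 without Sema3e) and 0 higher, against 12.6% and 13.2% of all genes. At an unadjusted p under 0.05, 1 was higher, and in DESeq2 0. With the median-length offset 4 were lower (22.2%, against 11.2% of all genes). With the longest-transcript offset 1 was lower (5.56%, against 7.91% of all genes) and 1 was higher. Sema3g, a secreted class 3 semaphorin known from vessels, where it is made by arterial endothelium and smooth muscle, stood at 10.2, 12.3 and 11.99 CPM in STAT3cKO hearts 3, 6 and 91, against 43.7, 33.4 and 32.1 CPM in wild-type hearts 1, 3 and 4. The groups lay far apart, with every STAT3cKO heart well below every wild-type heart. Its means were 11.5 ± 1.14 CPM in STAT3cKO and 36.4 ± 6.31 CPM in wild type (SD, n = 3 each). The fitted log2 difference was -1.66 ± 0.14 (SE; adjusted p = 2.32e-05 in edgeR). With the offsets it was -1.37 by the median length and -1.55 by the longest transcript (adjusted p = 7.79e-05 and 2.67e-05), and it passed in all 6 fits that left out 1 heart under either the longest-transcript offset or none. Sema3g lies on chromosome 14, 31217860 to 31230352, with 1 annotated transcript of 4540 nt in GENCODE, whose start lies 13 bases before the RefSeq start used for the sequence above.

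The other lowered semaphorins were called less firmly. Sema3e, a class 3 ligand that binds plexin-D1 without a neuropilin, had 6, 1 and 2 raw counts in STAT3cKO hearts, against 15, 11 and 15 in wild-type hearts. The groups did not overlap, but Sema3e passed the low-count filter through its wild-type counts, and its log2 difference of -1.96 ± 0.61 (SE; edgeR adjusted p = 0.0326) missed the threshold in 5 of the 6 fits that left out 1 heart, all but that without STAT3cKO heart 3 (adjusted p up to 0.12), with both offsets (0.0741 and 0.0722) and in DESeq2 (0.0696). Sema3c, known for its part in outflow tract septation, had 10.99, 12.7 and 16.2 CPM in STAT3cKO hearts, against 18.9, 16.0 and 20.2 CPM in wild-type hearts, which overlap. Its log2 fold change was -0.46 ± 0.15 (SE; edgeR adjusted p = 0.0403), and the call was lost without STAT3cKO heart 3 or 6 or wild-type heart 1 or 4 (adjusted p = 0.148, 0.081, 0.107 and 0.141) and with the longest-transcript offset (0.201).

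Of the 4 transmembrane class 6 semaphorins, which bind A-type plexins, Sema6a and Sema6d were lower without an offset. Sema6d stood at 36.4, 28.7 and 36.3 CPM in STAT3cKO hearts, against 45.6, 46.6 and 57.2 CPM in wild-type hearts, with no overlap (log2 fold change -0.56 ± 0.12, SE; edgeR adjusted p = 0.00624). Sema6a had 14.1, 15.5 and 19.5 CPM in STAT3cKO hearts, against 25.5, 19.4 and 25.5 CPM in wild-type hearts, where the highest STAT3cKO heart was just above the lowest wild-type heart (-0.52 ± 0.15; adjusted p = 0.0219). Neither passed with the offsets, where Sema6d was at -0.23 and -0.29 (adjusted p = 0.213 and 0.139) and Sema6a at -0.28 and -0.24 (0.189 and 0.312). Sema6a also missed the threshold without STAT3cKO heart 3 or 6 or wild-type heart 1 or 4 (adjusted p = 0.0894, 0.0551, 0.0839 and 0.0848). The longest transcripts of these genes are 6856 nt for Sema6a and 6444 nt for Sema6d.

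Sema4a and Sema4d, class 4 membrane semaphorins known from immune cells, passed with the offset by the median length but neither without an offset nor with the longest transcript. Sema4a had 3.89, 2.73 and 5.42 CPM in STAT3cKO hearts, against 6.69, 5.73 and 6.47 CPM in wild-type hearts (log2 fold change -0.64 and adjusted p = 0.0648 without an offset, -0.74 and 0.0364 with the median length, -0.64 and 0.071 with the longest transcript). Sema4a also passed with no low-count filter (0.0225) and without STAT3cKO heart 91 (0.0165, or 0.0205 with the longest transcript). Sema4d had 26.7, 37.2 and 37.4 CPM in STAT3cKO hearts, against 41.3, 40.3 and 41.03 CPM in wild-type hearts (-0.27 and 0.126 without an offset, -0.50 and 0.0183 with the median length, -0.14 and 0.468 with the longest transcript). Sema4d has 14 annotated transcripts with a median of 571 nt and a longest of 4482 nt, so the choice of length decided its call. Sema3b, another secreted class 3 member, had 37.1, 30.8 and 36.0 CPM in STAT3cKO hearts, against 27.1, 27.4 and 29.95 CPM in wild-type hearts. All STAT3cKO hearts were above all wild-type hearts, with a log2 fold change of 0.30 and an edgeR adjusted p of 0.0538, and 0.0498 with the longest-transcript offset. Under that offset the call held only without STAT3cKO heart 6 (adjusted p = 0.0259) or wild-type heart 4 (0.049), and was lost without any other heart (0.0985 to 0.167).

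Of 5 ephrin-A genes 3 could be tested and Efna5 was higher, and of 3 ephrin-B genes Efnb1 and Efnb2 were lower. Of the 6 ephrins tested, 33.3% were lower and 16.7% higher, against 12.6% and 13.2% of all genes. The counts were the same with either offset, where 11.2% (median length) and 7.91% (longest transcript) of all genes were lower. Efna5, ephrin-A5, a lipid-anchored ligand of EphA receptors, had 10.8, 9.997 and 11.3 CPM in STAT3cKO hearts, against 7.16, 6.92 and 5.87 CPM in wild-type hearts, with no overlap. Its fitted difference was 0.69 ± 0.15 on the log2 scale (SE; edgeR adjusted p = 0.00612), and 0.81 and 0.76 with the offsets by the median length and the longest transcript (adjusted p = 0.00287 and 0.00458). It passed in all 6 fits that left out 1 heart, with or without the longest-transcript offset, at adjusted p up to 0.0304. Efna5 lies on chromosome 17, 62604184 to 62881317.

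Efnb2, ephrin-B2, the ligand that marks arterial endothelium, had 18.0, 16.9 and 22.5 CPM in STAT3cKO hearts, against 31.3, 28.6 and 33.2 CPM in wild-type hearts. The groups did not overlap, and the log2 difference was -0.69 ± 0.12 (SE; edgeR adjusted p = 0.00199), or -0.52 and -0.53 with the offsets (adjusted p = 0.0113 and 0.0121). Under the longest-transcript offset the call was lost without STAT3cKO heart 3 (adjusted p = 0.0532) or wild-type heart 4 (0.054). Efnb2 lies on chromosome 8, 8617434 to 8661242. Efnb1, ephrin-B1, carried in the heart by cardiomyocytes among other cells, had 16.1, 17.7 and 16.2 CPM in STAT3cKO hearts, against 27.03, 22.1 and 21.5 CPM in wild-type hearts, again with no overlap. Its log2 fold change was -0.50 ± 0.12 (SE; edgeR adjusted p = 0.00957), -0.46 and -0.50 with the offsets (0.0135 and 0.0119), and under the longest-transcript offset it missed the threshold without wild-type heart 1 (0.0632). Efnb1 lies on chromosome X, 99136130 to 99148991.

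The remaining ephrins did not pass. Efnb3, ephrin-B3, had 47.3, 55.6 and 31.5 CPM in STAT3cKO hearts, against 64.9, 68.3 and 60.4 CPM in wild-type hearts. STAT3cKO heart 91 stood lowest, and the log2 fold change of -0.53 ± 0.18 had an edgeR adjusted p of 0.0615, while DESeq2 called it (adjusted p = 0.00955). Efna1, ephrin-A1, an endothelial ligand of EphA2, had 29.6, 18.3 and 29.5 CPM in STAT3cKO hearts, against 33.05, 28.8 and 27.7 CPM in wild-type hearts, which overlap (-0.21 ± 0.17; edgeR adjusted p = 0.398). Efna2 had 14 to 16 raw counts in STAT3cKO hearts and 14 to 23 in wild-type hearts.

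Among the receptors, all 9 plexins were tested. In edgeR 4 were lower (44.4%) and 0 higher, against 12.6% and 13.2% of all genes. At an unadjusted p under 0.05 and in DESeq2 0 were higher. With the median-length offset 3 were lower (33.3%, against 11.2% of all genes). With the longest-transcript offset 1 was lower (11.1%, against 7.91% of all genes) and 1 higher, and the median log2 fold change was -0.06. Plxnc1, a receptor for Sema7a that is known from leukocytes, had 2.73, 3.05 and 2.52 CPM in STAT3cKO hearts, against 5.15, 6.68 and 6.36 CPM in wild-type hearts. The groups did not overlap and the log2 fold change was -1.13 ± 0.21 (SE; edgeR adjusted p = 0.00244). It was -1.26 with the median length and -0.82 with the longest transcript (adjusted p = 0.00165 and 0.0138), and with the longest transcript it missed the threshold without wild-type heart 3 (0.0558) or 4 (0.0513). Plxnc1 lies on chromosome 10, 94790866 to 94944835. Its ligand gene Sema7a, a membrane semaphorin with a lipid anchor, had 35.3, 44.5 and 30.4 CPM in STAT3cKO hearts, against 47.05, 40.6 and 34.7 CPM in wild-type hearts, which overlap (-0.15 ± 0.15; adjusted p = 0.478).

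Plxnd1, the endothelial receptor for Sema3e, had 143, 123 and 105 CPM in STAT3cKO hearts, against 168, 151 and 158 CPM in wild-type hearts. No STAT3cKO heart reached a wild-type heart, but the log2 fold change was only -0.36 ± 0.11 (SE; edgeR adjusted p = 0.0288). The call was lost in every fit that left out 1 heart (adjusted p = 0.0501 to 0.104) except that without STAT3cKO heart 3, and the value was -0.60 with the median length (adjusted p = 0.00269) and -0.12 with the longest transcript (0.452). Plxna4 had 14.3, 18.0 and 15.1 CPM in STAT3cKO hearts, against 23.9, 26.5 and 29.5 CPM in wild-type hearts, with no overlap. Its log2 fold change was -0.75 ± 0.13 (SE; edgeR adjusted p = 0.00139), and -0.33 and -0.29 with the offsets (0.0557 and 0.0805). Its longest transcript, of 12877 nt, was the longest of any member tested.

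Plxna1, a co-receptor of the neuropilins, had 37.3, 34.1 and 32.2 CPM in STAT3cKO hearts, against 45.6, 43.3 and 48.2 CPM in wild-type hearts, with no overlap. It was at -0.40 ± 0.10 without an offset (SE; edgeR adjusted p = 0.0101), at -0.56 with the median length (0.00278) and at -0.06 with the longest transcript (0.672). Its median transcript is 706.5 nt and its longest 9034 nt. Plxnb1, a receptor for Sema4d, had 65.6, 74.3 and 49.9 CPM in STAT3cKO hearts, against 49.3, 51.3 and 58.6 CPM in wild-type hearts, which overlap. It was at 0.25 ± 0.14 without an offset (edgeR adjusted p = 0.193), 0.08 with the median length (0.764) and 0.57 with the longest transcript (0.00775), and with the longest transcript it passed whichever heart was left out. Without an offset it passed when STAT3cKO heart 91 was left out (0.41; adjusted p = 0.0219). The longest transcript of Plxnb1 is 8649 nt, and the median of its 7 annotated transcripts 731 nt. The other plexins, Plxna2, Plxna3, Plxnb2 and Plxnb3, had log2 fold changes of -0.53, 0.50, -0.17 and -0.13 and did not pass in edgeR with or without an offset; DESeq2 called Plxna2 (adjusted p = 0.0131).

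Of 14 Eph receptor genes, 8 were tested. In edgeR 3 were lower (37.5%) and 0 higher, against 12.6% and 13.2% of all genes. At an unadjusted p under 0.05 and in DESeq2 0 were higher. With either offset 3 were lower as well, where 11.2% (median length) and 7.91% (longest transcript) of all genes were lower. Epha7 had 3.21, 4.35 and 4.05 CPM in STAT3cKO hearts, against 7.10, 9.66 and 7.08 CPM in wild-type hearts. The groups did not overlap and the log2 fold change was -1.03 ± 0.20 (SE; edgeR adjusted p = 0.0034), -0.87 and -0.78 with the offsets (0.00741 and 0.015). Under the longest-transcript offset the call was lost without STAT3cKO heart 3 (0.0594) or wild-type heart 3 (0.0716). Epha7 lies on chromosome 4, 28813131 to 28967499.

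Ephb1, a receptor for ephrin-B ligands, had 3.34, 3.31 and 3.23 CPM in STAT3cKO hearts, against 8.24, 4.35 and 8.12 CPM in wild-type hearts. The STAT3cKO hearts were nearly equal and the wild-type hearts spread widely, with wild-type heart 3 closest to STAT3cKO. Its log2 fold change was -1.07 ± 0.25 (SE; edgeR adjusted p = 0.00831), -0.93 and -0.92 with the offsets (0.0179 and 0.0234), and under the longest-transcript offset it passed only without STAT3cKO heart 6 (0.0451) or wild-type heart 3 (0.00469) and was lost without any other heart (0.0563 to 0.102). Ephb1 lies on chromosome 9, 101922128 to 102354693.

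Ephb4, the venous receptor for ephrin-B2, had 55.8, 51.5 and 53.2 CPM in STAT3cKO hearts, against 82.0, 66.3 and 69.8 CPM in wild-type hearts. There was no overlap, and the log2 difference of -0.44 ± 0.10 (SE; edgeR adjusted p = 0.00662) became -0.21 with the median length (0.14) and -0.36 with the longest transcript (0.0179). Under the longest-transcript offset the call was lost without wild-type heart 1 (0.0851) or 4 (0.0556). The arterial ligand Efnb2 and the venous receptor Ephb4 were thus both lower without an offset. Epha2, the receptor for ephrin-A1, had 6.55, 8.96 and 7.23 CPM in STAT3cKO hearts, against 10.8, 8.89 and 9.98 CPM in wild-type hearts, which overlap, and passed with the median length (-0.38 and 0.102 without an offset, -0.52 and 0.0385 with the median length, -0.32 and 0.193 with the longest transcript). Epha2 also passed without an offset when scaled by library size alone (0.0437) or without STAT3cKO heart 6 (0.0369). Epha4 had 33.2, 55.1 and 27.98 CPM in STAT3cKO hearts, against 51.06, 65.4 and 55.7 CPM in wild-type hearts. STAT3cKO heart 6 lay within the wild-type range, and the gene did not pass (-0.57 ± 0.26; edgeR adjusted p = 0.162; DESeq2 adjusted p = 0.018). Ephb2, Ephb3 and Ephb6 had log2 fold changes of -0.41, 0.04 and 0.07 and did not pass.

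**Figure D3:**
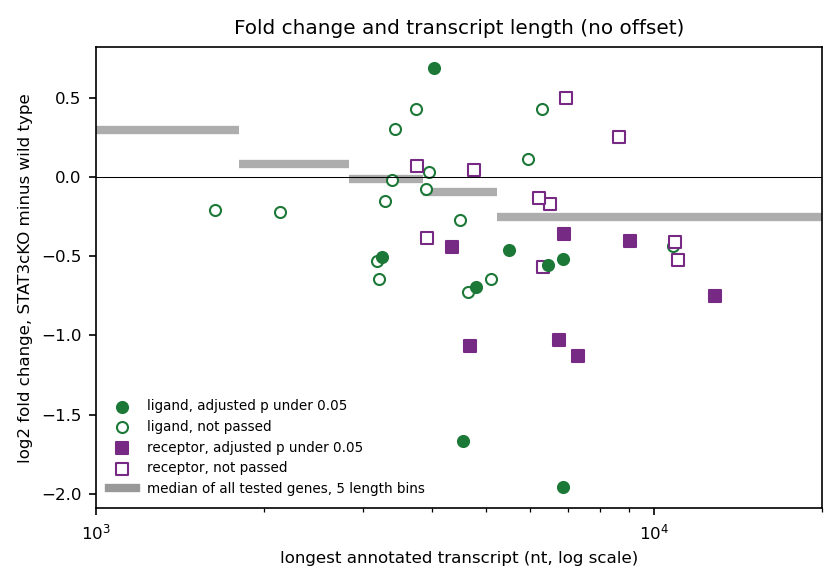
Log2 fold change without an offset (vertical axis) against the longest annotated transcript (nt, log axis) for 24 ligands and 17 receptors tested, with grey bars for the median of all tested genes in 5 length bins. In the longest bin the median of all genes is -0.25 and that of the 19 members -0.43.

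Of the 41 members, 19 had a longest transcript of at least 5225 nt. Of these, 9 were lower without an offset, with a median log2 fold change of -0.43, against -0.25 and 31.6% lower for all genes of that length. With the longest-transcript offset 2 of the 19, Epha7 and Plxnc1, were lower (median -0.12), near the 9.73% of all genes of that length. Among the 12 members between 3856 and 5224 nt, 4 were lower both without and with the offset, with medians of -0.41 and -0.34, against -0.09 and 0.02, with 14.9% and 7.58% lower, for all genes of that length. Groups did not overlap, with STAT3cKO lower, for 17 members (41.5%, against 21.5% of all genes tested), 9 ligands and 8 receptors. They did not overlap, with STAT3cKO higher, for 2 members, both ligands (4.88%, against 21.5% of all genes tested).

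Levels were compared between genes per kilobase of the longest transcript (RPKM), and ran over tested members from 0.0284 to 19.1 in STAT3cKO and from 0.0694 to 23.0 in wild type. Plxnd1 and Plxnb2 led the plexins, at 17.9 ± 2.71 and 19.1 ± 1.13 RPKM in STAT3cKO hearts, against 23.0 ± 1.22 and 21.5 ± 1.58 RPKM in wild-type hearts (SD, n = 3), and did not differ from each other beyond their spread. Among the ephrins Efnb3 and Efna1 were highest, at 14.1 ± 3.84 and 15.8 ± 3.98 RPKM in STAT3cKO hearts, against 20.3 ± 1.25 and 18.3 ± 1.74 RPKM in wild-type hearts. Ephb4 led the Eph receptors at 12.3 ± 0.489 RPKM in STAT3cKO and 16.7 ± 1.90 RPKM in wild type, ahead of Epha4 at 6.13 ± 2.27 and 9.07 ± 1.16 RPKM in the same groups. Sema7a had the highest means of the semaphorins, at 11.1 ± 2.17 RPKM in STAT3cKO and 12.4 ± 1.87 RPKM in wild type. In STAT3cKO hearts Sema3b was close, at 10.1 ± 0.975 RPKM, and lay above Sema7a in hearts 3 and 91. Sema3g, at 8.02 ± 1.39 RPKM, stood in wild-type hearts below Sema4d at 9.12 ± 0.123 RPKM and close to Sema3b at 8.20 ± 0.456 and Sema6d at 7.73 ± 0.991 RPKM. At 2.53 ± 0.251 RPKM in STAT3cKO hearts it stood below Sema6d at 5.25 ± 0.688 RPKM.

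**Figure D4:**
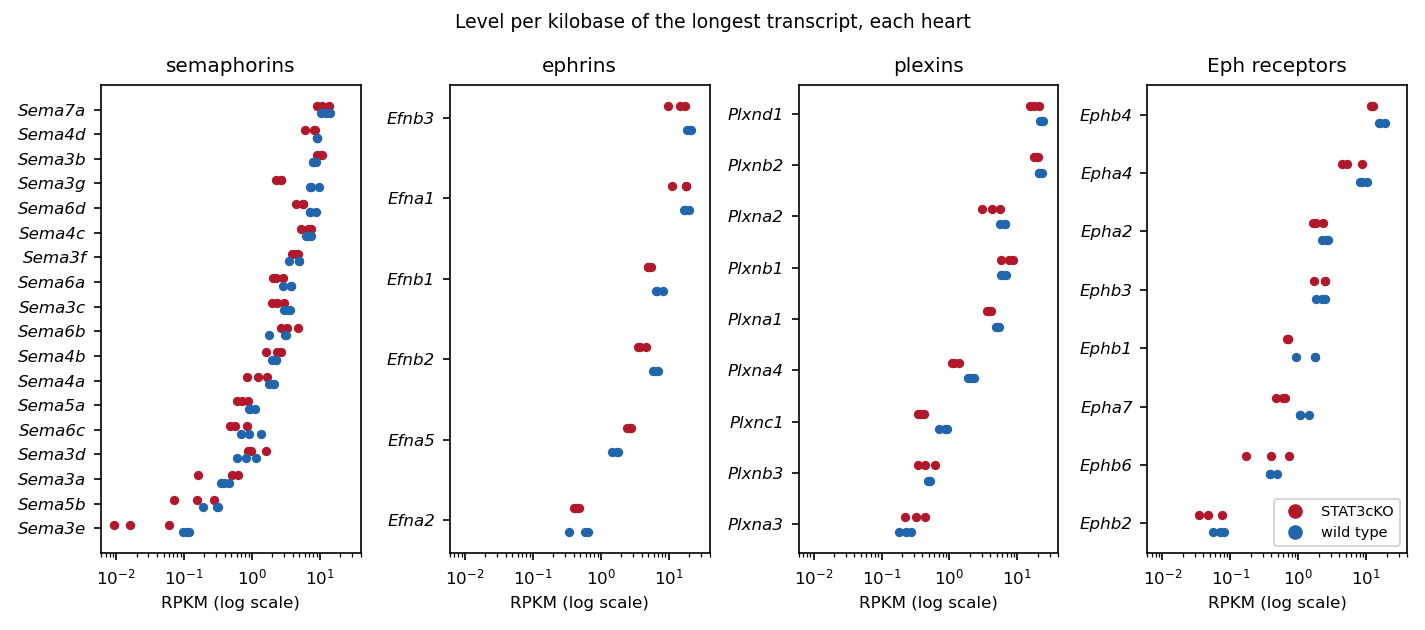
RPKM per kilobase of the longest transcript (log axis) of the tested members of each family, with 3 STAT3cKO and 3 wild-type hearts each, ordered by the wild-type mean. Sema3g averages 2.53 RPKM in STAT3cKO and 8.02 RPKM in wild type, and Plxnd1 and Plxnb2 are the highest members.

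Too few reads were found for 11 members, which were not tested. Epha5, Epha8 and Epha10 had no read in any heart. Epha6 had 0 reads in each STAT3cKO heart and 1, 7 and 5 in the wild-type hearts, and Epha3 had 0, 1 and 0 reads in STAT3cKO hearts and 9, 7 and 0 in wild-type hearts. Efna3, Efna4, Epha1, Sema4f and Sema4g had at most 10 reads in any heart. Plxna4os1, which lies antisense within Plxna4, had 5, 5 and 14 reads in STAT3cKO hearts and 12, 5 and 9 in wild-type hearts. In a fit with no low-count filter Epha6 and Epha3 were lower (edgeR adjusted p = 0.0223 and 0.0483), on these few reads of the wild-type hearts, and the other 6 with any read did not pass.

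Genes that work with these ligands and receptors included some that were higher and some that were lower. Of 18 semaphorin partners, 17 were tested, 2 were higher and 3 lower (median log2 fold change -0.19, beside 0.00 for all genes). These are 11.8% and 17.6% of those tested, near the 13.2% and 12.6% of all genes. With the longest-transcript offset 3 were higher and 1 lower (median 0.00). Nrp1, the neuropilin that class 3 semaphorins and VEGF share, had 146, 162 and 137 CPM in STAT3cKO hearts, against 243, 210 and 256 CPM in wild-type hearts, with no overlap (-0.67 ± 0.10, SE; edgeR adjusted p = 0.000906, and 0.00892 and 0.00173 with the offsets). Nrp2, the other neuropilin, was lower (-0.56; adjusted p = 0.0129) but not with the offsets (0.362 and 0.14), and likewise Arhgef11, which binds B-type plexins (-0.43; 0.0171, and 0.541 and 0.403). Dpysl2, the cytoskeletal CRMP2 that relays Sema3a signals in neurons, had 21.02, 19.7 and 25.2 CPM in STAT3cKO hearts, against 11.8, 9.54 and 9.49 CPM in wild-type hearts (1.09 ± 0.14; edgeR adjusted p = 0.000338, and 0.000101 and 0.000179 with the offsets).

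Of 22 partners of Eph and ephrin signalling, 18 were tested, 2 were higher (11.1%) and 6 lower (33.3%), with a median of -0.26. With the longest-transcript offset 2 were higher and 1 lower (median -0.16), where 7.91% of all genes were lower. Rgs3, which binds the tail of ephrin-B, was lower in all 3 fits (-0.54 ± 0.11; edgeR adjusted p = 0.00403, and 0.00599 and 0.0242 with the offsets). Grip2, a PDZ scaffold of the family that binds ephrin-B, was higher in all 3 (0.55 ± 0.13; 0.00848, 0.00244 and 0.00251). Adam10, the protease that sheds ephrins (-0.35; 0.00947, 0.0216 and 0.0669), and Tiam1, a Rac activator downstream of Eph and ephrin-B (-0.80; 0.0098, 0.0103 and 0.0981), were lower but not with the longest-transcript offset.

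Heart RNA mixes cell types, and fewer cells of a type cannot be told apart from less RNA per cell in these samples. Markers of several cell types that carry semaphorins, ephrins and their receptors moved with the members. Among all genes tested 12.6% were lower and 13.2% higher, or 7.91% and 10.9% with the longest-transcript offset. Without an offset, 66.7% of the tested endothelial and 58.3% of the smooth muscle and pericyte markers were lower. For macrophage, Schwann cell and neural, and lymphatic markers the shares were 50%, 42.9% and 40%. Of 16 endothelial markers 15 were tested, 10 were lower (9 with the longest-transcript offset) and 0 higher (edgeR; 1 higher at an unadjusted p under 0.05 and 0 in DESeq2; median -0.49). Their summed level was 2119 to 2440 CPM in STAT3cKO hearts and 2789 to 3303 CPM in wild-type hearts. Of the 15, 12 had a negative fold change, and the others were Fabp4 (0.23), Egfl7 (0.23) and Emcn (0.16), which did not pass. Fabp4 gave the largest part of the sum, with means of 771 CPM in STAT3cKO and 656 CPM in wild type. Cdh5 (-1.09), Ptprb (-1.06) and Flt1 (-0.82) had the smallest adjusted p-values. The defining marker Cldn5 was near 0, with a mean of 0.240 CPM in STAT3cKO and 0.499 CPM in wild type.

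Of 12 smooth muscle and pericyte markers 7 were lower (4 with the longest-transcript offset) and 0 higher (0 higher at an unadjusted p under 0.05 and 0 in DESeq2; median -0.71), among them Acta2 (-2.09), Notch3 (-0.76) and Cspg4 (-0.61). Of these 3, Cspg4 did not pass with the longest-transcript offset (-0.31; edgeR adjusted p = 0.051). The 12 markers summed to 2297 to 2578 CPM in STAT3cKO and 2944 to 3092 CPM in wild type. Des gave the largest part, with means of 1365 CPM in STAT3cKO and 1298 CPM in wild type. It did not pass (0.07; edgeR adjusted p = 0.621), and the other 11 had a negative fold change. Of 12 macrophage markers 6 were lower (8 with the longest-transcript offset) and 0 higher (0 and 0 by the same checks; median -0.47). Those with the smallest adjusted p-values were Cd163 (-1.68), Csf1r (-1.09) and Itgam (-0.99). Their sums were 426 to 614 CPM in STAT3cKO and 554 to 710 CPM in wild type, which overlap. Of 10 Schwann cell and neural markers 7 were tested and 3 were lower, with or without the longest-transcript offset (median -0.99), Sox10, Cdh19 and Gfra3. Sox10 had under 10 reads in every STAT3cKO heart and Gfra3 in all but STAT3cKO heart 6, so both passed the filter mainly through wild type. Of the 7 tested, 6 had a negative fold change. The neuronal markers of the list were not lower. Dbh was at 0.26 (edgeR adjusted p = 0.529), and Th was at 0 in every heart. Prph, not tested, had 5, 7 and 7 reads in STAT3cKO hearts and 4, 4 and 3 in wild-type hearts. The list had sums of 18.1 to 26.2 CPM in STAT3cKO and 34.4 to 38.4 CPM in wild type. Of 7 lymphatic markers 5 were tested and 2 were lower, Flt4 (-0.51) and Lyve1 (-0.67), of which Flt4 did not pass with the offsets (-0.20 and -0.28; adjusted p = 0.214 and 0.087). Of the 5, Mmrn1 alone had a positive fold change (0.23), and Pdpn and Ccl21a had too few reads to test. The lymphatic sums nearly met, at 124 to 147.0 CPM in STAT3cKO and 147.7 to 178 CPM in wild type. Prox1 gave the largest part, with means of 72.6 CPM in STAT3cKO and 80.4 CPM in wild type. It did not pass (-0.15, edgeR adjusted p = 0.325).

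Other markers moved less in one direction. Fibroblast markers were 16.7% lower and 8.33% higher, near the 12.6% and 13.2% of all genes tested. Cardiomyocyte markers were 16.7% lower and 25% higher, and tested lymphocyte markers 33.3% and 0%. Of 12 fibroblast markers 1 was higher, Dcn (0.79), and 2 lower, Col1a1 (-0.51) and Col1a2 (-0.72), of which Col1a1 did not pass with the longest-transcript offset (adjusted p = 0.21), with overlapping sums of 3837 to 4897 CPM in STAT3cKO and 2916 to 4357 CPM in wild type. At an unadjusted p under 0.05 and in DESeq2 3 were higher and 2 lower, and 2 were higher with the median-length offset. Only 3 of the 12 had a negative fold change. Of 12 cardiomyocyte markers 3 were higher, Myl2 (0.80), Tnni3 (0.62) and Tnnt2 (0.55), and 2 lower, Ryr2 (-0.65) and Atp2a2 (-0.55). With the longest-transcript offset 3 were higher, Myl2, Tnnt2 and Ttn, and 0 lower. Tnni3 was then at 0.27 (edgeR adjusted p = 0.0993), Ryr2 at -0.16 (0.364) and Atp2a2 at -0.34 (0.0655). Ttn was at 0.04 without an offset (edgeR adjusted p = 0.861) and at 0.64 with the longest transcript (0.00462). The list had overlapping sums of 71168 to 85371 CPM in STAT3cKO and 68239 to 76071 CPM in wild type. Of 10 lymphocyte markers 3 were tested and 1, Ptprc (-0.62), was lower, though not with the offsets (adjusted p = 0.0581 and 0.0567), with Trac at 0 in every heart and overlapping sums of 12.9 to 18.7 CPM in STAT3cKO and 17.1 to 19.9 CPM in wild type. The part of any of these markers in the levels of the members was not tested. Summed ligand CPM was 373 to 394 in STAT3cKO and 473 to 508 in wild type, and summed receptor CPM 479 to 584 in STAT3cKO and 646 to 693 in wild type.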

How the data were processed

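RNA of 3 STAT3cKO and 3 wild-type mouse heart samples was analysed. RNA was taken up in Trizol, and libraries were made by Illumina's standard procedure, per the labels' protocols. Reads were processed with HISAT2 and GRCm38, according to the submitters' processing notes. The HISAT2 version, the counting program, its annotation and its strand setting were not stated in the sources used. The deposited values are raw read counts per gene, not normalized by the authors. Without strand, exons shared with genes of the other strand cannot be told apart, which touches Ephb4 (with Zan), Plxna4 (Plxna4os3), Plxna1 (Gm26811), Ephb1 (Gm26846), Plxnb1 (Gm7628) and Sema4c (D430040D24Rik); Plxnc1 and Sema4a share exon bases with Gm48718 and Mir7011.

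Genes were filtered with filterByExpr (minimum count 10), scaled by TMM and tested with the robust quasi-likelihood F test of edgeR 4.0.16 in R 4.3.3, with genotype as the only term and Benjamini-Hochberg adjustment over 14484 genes; the threshold was 0.05. Each SE was obtained as the absolute log2 difference over the root of its F statistic. Transcript lengths and coordinates are from GENCODE M21 (GRCm38), with lengths for 93.8% of tested genes and for all 52 members. Offsets were natural splines (5 degrees of freedom each) of log2 CPM deviations on log2 length and GC content, per heart. The median transcript was planned as the length of a gene; after the lengths were seen, the longest was used for RPKM and set beside it in the offset, since the median falls on short models such as 542 nt for Plxnd1 (longest 6907 nt). DESeq2 1.42.0 was an alternative. The counts without genes under 10 reads in every heart of a group, and the fits with the longest-transcript offset that left out a heart, were added after seeing the data. The fits without an offset and with the median-length offset were run on simulated data, and the fit with the longest-transcript offset was not. Members, gene lists and motifs were chosen with earlier results of these data known. Named were members called with or without an offset, the highest of each family, up to 4 partners and 3 markers per list; other genes named were chosen after their values were seen.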

Additional observations from a re-analysis of the deposited data

How the results depend on the processing

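No paired analysis was possible because the groups share only 1 replicate number. Over 20 named members and 14 other settings, 279 values were compared: none turned direction, 230 kept their side of the threshold, 35 lost and 14 gained a call. Counts of members stayed within 1.5 times of 14 lower and 1 higher with DESeq2 size factors, a 1 CPM filter, DESeq2 (16 lower) and the median-length offsets. With no low-count filter 22 members were lower and 2 higher (11 and 2 of the ligands, 11 of the receptors lower), the cause of which was not tested. Over all 25015 genes in that fit 2351 were lower and 2032 higher, against 1820 and 1918 of 14484 with the filter. Library size alone moved the all-gene median to -0.11 (log2) and gave 11 lower receptors, with 2714 of all 14484 genes lower. The longest-transcript offset gave 7 lower and 3 higher members, 3 lower and 2 higher ligands, and 4 lower and 1 higher receptors. It gave 1145 lower and 1585 higher of all 14484 genes. Leaving out 1 heart gave 10 to 14 lower and 1 to 2 higher members, 4 to 7 lower and 1 to 2 higher ligands, and 6 to 9 lower and 0 to 1 higher receptors. Over all genes tested the calls shifted too, to 1198 (without wild-type heart 4) to 1999 lower (without STAT3cKO heart 6). Higher genes numbered 1237 to 1887 in these fits. Depth limits the members under about 10 reads per heart.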
